A study of Mus musculus with 6 samples.

Results

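The 10 NRF2 antioxidant genes described here are Nfe2l2, Keap1, Sqstm1, Gclc, Gclm, Gsr, Txnrd1, Prdx1, Srxn1 and Nqo1, taken by gene symbol from the 55421 genes of the count table of tumor-associated macrophages (TAMs). They were listed by name, with earlier results of these data known, and all 10 passed the expression filter that left 14469 genes to test. In TAMs of Pdcd1f/fLysMcre mice the transcripts of 2 of them, Srxn1 and Txnrd1, were higher than in TAMs of Pdcd1f/f mice, by 29.6% and 25.4%. The other 8 did not pass the test, and among these Nqo1 had few counts and varied most between libraries of the same genotype.

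The study asked how deletion of PD-1 (encoded by Pdcd1) in myeloid cells affects tumor-infiltrating macrophages. The TAMs were live CD45+CD11b+F4/80+Ly6G- cells sorted on day 15 from subcutaneous tumors of implanted cells labelled M17 (MC17-51 in the study's methods), a mouse fibrosarcoma. The mice were 8 to 12 weeks old at implantation. All mice carried the floxed Pdcd1 alleles, and the Pdcd1f/fLysMcre mice carried in addition Cre under the lysozyme promoter, which is active in macrophages, monocytes and granulocytes, so the deletion is neither limited to TAMs nor induced at a chosen time. Each genotype has 3 polyA RNA libraries. The inbred strain of the floxed mice and the number of mice behind each library are not given in the sources used here, so the p-values measure the spread between these libraries.

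NRF2, the protein of Nfe2l2, is a transcription factor that switches on genes for detoxification and for the repair of oxidative damage. In unstressed cells KEAP1 binds NRF2 and brings it to a CUL3 ubiquitin ligase for degradation, and oxidants or electrophiles that modify cysteines of KEAP1 stop this, so that NRF2 accumulates and binds antioxidant response elements with small MAF proteins. Much of this control acts on the protein, which RNA-seq does not measure.

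Because the antioxidant response element is the sequence through which NRF2 acts, its core was searched in the RefSeq promoter windows of the members, which run from 250 bases before to 50 bases after a transcript start in GRCm38.p6. The motif was TGACNNNGC on either strand, read as GCNNNGTCA on the opposite one. A window was given for 8 members, and 5 of them held a match in at least 1 window, against 14% of all genes. These 8 members had 10 windows, of which 5 held a match, against 12.4% of all 32851 windows. Since the members were listed for their link to NRF2, these shares describe the list and test nothing about it. The matching stretches are shown 5′ to 3′ on the strand of the gene, with the motif in capitals, since they include Srxn1 and Txnrd1.
Srxn1: gcagtgggcaGCTAGGTCAgagtgagaca
Txnrd1: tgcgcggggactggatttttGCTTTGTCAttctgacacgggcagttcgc
Prdx1: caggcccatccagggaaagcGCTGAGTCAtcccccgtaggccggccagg
Gclm: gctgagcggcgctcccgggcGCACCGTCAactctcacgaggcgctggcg
Nfe2l2: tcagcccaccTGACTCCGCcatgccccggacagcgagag
The Srxn1 stretch lies at chr2:152105542-152105570 on the plus strand, and its motif begins 29 bases after the start. The Txnrd1 stretch, from 1 of its 3 windows, lies at chr10:82859094-82859142 on the plus strand, with the motif beginning 92 bases before that start. Those of Prdx1 (chr4:116685446-116685494, plus strand) and Gclm (chr3:122245403-122245451, plus strand) begin their motifs 133 and 134 bases before the start. That of Nfe2l2 (chr2:75704875-75704913, minus strand) begins its motif 240 bases before the start. The windows of Keap1, Sqstm1 and Nqo1 did not contain these letters, and Gclc and Gsr had no window. A match describes the sequence only, and binding of NRF2 was not measured.

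The 6 libraries held 41833823 to 51417209 counts, and 3 counts in a library correspond to 0.0583 to 0.0717 CPM, which covers counting error only. Pdcd1 had 7 to 16 counts in every library, the Pdcd1f/fLysMcre libraries included. Its log2 fold change was −0.25 with a standard error, SE, of 0.45 and a 95% interval of −1.24 to 0.74 (edgeR adjusted p = 0.771). Such low gene-level counts cannot show whether the floxed part of Pdcd1 was removed. Lyz2, which carries the Cre insertion, was lower by 8.99 on the log2 scale (edgeR adjusted p = 2.43e-12), so the genotype labels rest on Lyz2. Only the Pdcd1f/fLysMcre mice carried Cre. Effects of Cre and of the loss of Lyz2 transcript therefore cannot be told apart from those of Pdcd1 deletion. Every library held Xist together with Y-linked transcripts, at levels that differed between the genotypes, so sex and genotype cannot be told apart here. In Pdcd1f/f replicate 1 and Pdcd1f/fLysMcre replicate 2 a gene's deviation from its genotype's mean fell with its GC content (Spearman rho of −0.76 and −0.70 over 10596 genes, which are not independent), whereas in the other 4 libraries rho was between 0.19 and 0.71. For the members and the named pathway genes, calls that change without this pair of libraries are given with both values. Because the deviations are from the mean of the same 3 libraries, a low rho in 1 partly fixes higher ones in the others. Replicate 3 of both genotypes departed about as far in the opposite direction (rho 0.70 in Pdcd1f/f and 0.71 in Pdcd1f/fLysMcre). The summed macrophage markers were 321071 to 328158 normalized counts in Pdcd1f/f and 265603 to 272595 in Pdcd1f/fLysMcre libraries, with 3 of 6 markers (Adgre1, Csf1r and Mrc1) lower by the test. In the same order, the summed markers of other cells ranged without overlap for conventional dendritic cells (78.2 to 116 and 153 to 164), B cells (169 to 209 and 120 to 149) and endothelial cells (1869 to 1988 and 1519 to 1643, with Pecam1 lower by the test, while Cdh5 and Kdr were at −0.01 and 0.02 on the log2 scale and did not pass). They overlapped for neutrophils (1189 to 1617 and 1523 to 1663), T cells (34.0 to 44.7 and 43.8 to 63.8), NK cells (5.59 to 14.8 and 2.86 to 8.33), fibroblasts or fibrosarcoma cells (3009 to 3283 and 2895 to 3187, with Col1a2 lower by the test) and erythroid cells (2.19 to 17.6 and 0 to 7.87), and no marker was at 0 in all libraries. Their part in the results for the antioxidant genes was not tested, and in bulk libraries fewer cells of a type and less RNA per cell cannot be told apart.

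Counts below are the deposited normalized counts, in which the raw counts of a library are divided by its size factor. Fold changes are Pdcd1f/fLysMcre over Pdcd1f/f from edgeR's quasi-likelihood test on the raw counts, with Benjamini-Hochberg adjustment over all 14469 genes and an adjusted p threshold of 0.05. Of the 10 genes 2 were past the threshold, both higher in Pdcd1f/fLysMcre TAMs. Among all genes tested 5.43% passed in either direction and 2.42% passed as higher. The log2 fold change was above 0 for 9 of the 10 genes, with a median of 0.16 against 0.00 over all genes, and the median size of the change regardless of its sign, 0.18, was close to the 0.16 over all genes. In 5 of the 10 every Pdcd1f/fLysMcre library was above every Pdcd1f/f library, against 14.1% of all genes, and none was separated in the opposite direction. With 3 libraries against 3 an exact two-sided permutation test on a single gene cannot give a p below 0.1.

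**Figure D1:**
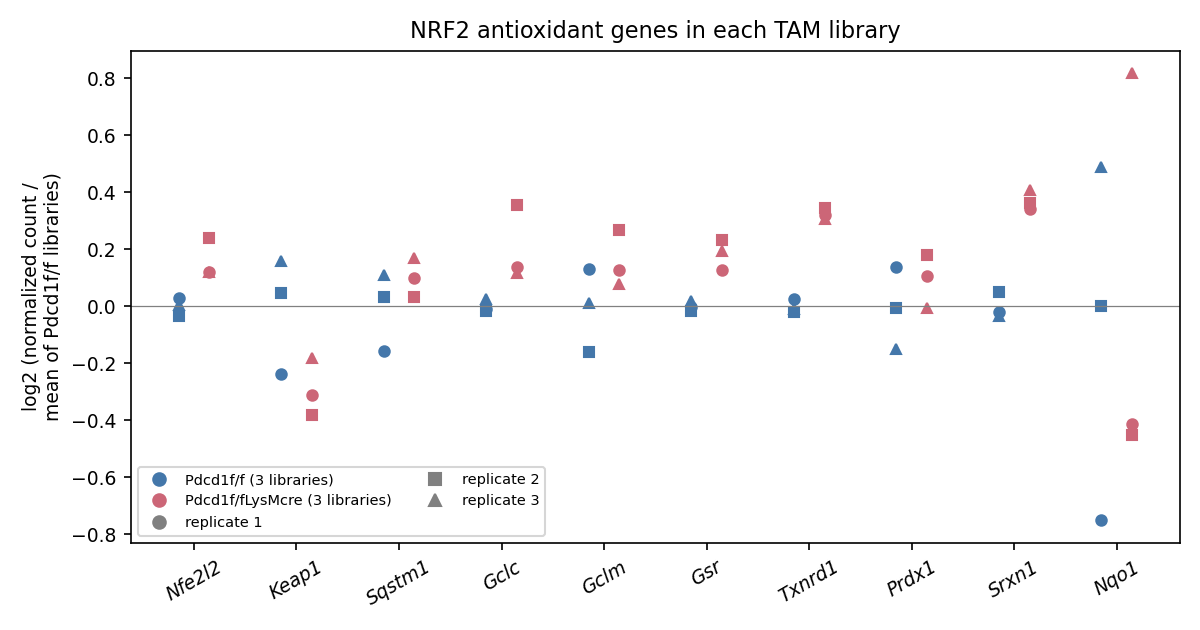
Each library's normalized count of the 10 NRF2 antioxidant genes, as log2 of its ratio to the mean of the 3 Pdcd1f/f libraries (vertical axis); blue marks are Pdcd1f/f, red marks are Pdcd1f/fLysMcre, and the shape gives the replicate number. The red marks of Nfe2l2, Gclc, Gsr, Txnrd1 and Srxn1 lie above all blue marks of the same gene, the other 5 genes overlap, and Nqo1 is the most scattered.

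The regulators come first. Nfe2l2 (ENSMUSG00000015839, GRCm38 chr2:75675513-75704641, minus strand), which encodes NRF2 itself, had 12137, 11620 and 11950 normalized counts in the 3 Pdcd1f/f libraries, in the order of their replicate numbers, and 12944, 14070.5 and 12937 in the 3 Pdcd1f/fLysMcre libraries. The groups did not overlap, the lowest Pdcd1f/fLysMcre library being 6.59% above the highest control, and replicate 2 stood above the other Pdcd1f/fLysMcre libraries. The log2 fold change of 0.16 (SE 0.06, 95% interval 0.03 to 0.30) was not past the threshold (edgeR adjusted p = 0.136). It passed only without the pair of libraries that stand apart in GC content (log2 fold change 0.13, edgeR adjusted p = 0.0408), in a fit in which each arm has 2 libraries, and over the alternatives the adjusted p ran from 0.0408 to 0.411. With the GC and length offsets the change was 0.11 (edgeR adjusted p = 0.0570).

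Keap1 (ENSMUSG00000003308, chr9:21229730-21239361, minus strand), the substrate adaptor that hands NRF2 to the ligase, was the only member with a fold change below 0. It had 1219, 1485 and 1606 normalized counts in Pdcd1f/f and 1158, 1104 and 1266 in Pdcd1f/fLysMcre libraries. Pdcd1f/f replicate 1 lay among the Pdcd1f/fLysMcre libraries, and the other Pdcd1f/f libraries lay above all of them. Keap1 had a log2 fold change of −0.29 (SE 0.11, 95% interval −0.52 to −0.05, edgeR adjusted p = 0.137). Without Pdcd1f/f replicate 1 it was −0.40 and past the threshold (adjusted p = 0.00686, in a fit that called 21.6% of all genes), and without both libraries that stand apart in GC content it was −0.35 (adjusted p = 0.00197), whereas offsets for GC content and length gave −0.13 (adjusted p = 0.124). Keap1 also passed when every gene with at least 1 count was tested (−0.29, adjusted p = 0.0371), and its adjusted p over the alternatives ran from 0.00197 to 0.418. At 58.0% GC the exons of Keap1 had the highest GC content of the members. The antisense gene Gm16754, with 19 to 47 counts, shares 8.3% of the 42-base words of Keap1, and whether reads were counted by strand is not given in the sources used here.

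Sqstm1 (ENSMUSG00000015837, chr11:50199366-50210827, minus strand) encodes the autophagy receptor p62, which binds KEAP1 and is itself a target of NRF2. Its normalized counts were 25223, 28747 and 30339 in Pdcd1f/f and 30115, 28734 and 31629 in Pdcd1f/fLysMcre libraries. The groups overlapped, with Pdcd1f/f replicate 1 below all other libraries. Sqstm1 had a log2 fold change of 0.10 (SE 0.08, 95% interval −0.07 to 0.28, edgeR adjusted p = 0.438). With offsets for GC content and length it was 0.19 and past the threshold (adjusted p = 0.00148), and without Pdcd1f/f replicate 1 it was 0.02 (adjusted p = 0.839), which are the ends of the range of its adjusted p. Without the pair of libraries apart in GC content it was 0.06 (adjusted p = 0.368). Its neighbour on the opposite strand, Mrnip, had 63 to 97 counts and shares 15.8% of the 42-base words of Sqstm1.

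Glutathione is the main thiol antioxidant of the cell, and glutamate-cysteine ligase makes its precursor. Gclc (ENSMUSG00000032350, chr9:77754535-77794485, plus strand), the catalytic subunit, had 1501, 1496 and 1538 normalized counts in Pdcd1f/f and 1664, 1936 and 1641 in Pdcd1f/fLysMcre libraries. The groups did not overlap, by 6.72%, and replicate 2 was the highest Pdcd1f/fLysMcre library. Its change of 0.21 on the log2 scale (SE 0.08, 95% interval 0.03 to 0.39) was not past the threshold (edgeR adjusted p = 0.144) and was called under none of the 18 alternatives, with adjusted p from 0.0508 to 0.384. Without the pair of libraries apart in GC content its change was 0.12 (adjusted p = 0.182), and without Pdcd1f/fLysMcre replicate 2 alone it was 0.13 (adjusted p = 0.384).

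Gclm (ENSMUSG00000028124, chr3:122245557-122270732, plus strand), the modifier subunit that makes the ligase more efficient, had 1439, 1175 and 1325 normalized counts in Pdcd1f/f and 1436, 1582 and 1388 in Pdcd1f/fLysMcre libraries. The groups overlapped, since Pdcd1f/f replicate 1 was above 2 of the 3 Pdcd1f/fLysMcre libraries. This gave a log2 fold change of 0.16 (SE 0.09, 95% interval −0.04 to 0.36, edgeR adjusted p = 0.296). It was 0.06 with the GC and length offsets (adjusted p = 0.545) and 0.09 without Pdcd1f/f replicate 2 (adjusted p = 0.702), and its adjusted p over the alternatives ran from 0.0794 to 0.702. Of its 42-base words 5.08% also occur in other genes, most of them in Gm17494, so that reads could have been split.

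Gsr (ENSMUSG00000031584, chr8:33652523-33698163, plus strand) encodes glutathione reductase, which returns oxidized glutathione to its reduced form. It had 5615, 5558 and 5706 normalized counts in Pdcd1f/f and 6148, 6612 and 6433 in Pdcd1f/fLysMcre libraries. The groups were separated by 7.75%, with a narrow spread within each. With a log2 fold change of 0.19 (SE 0.06, 95% interval 0.06 to 0.32), Gsr missed the threshold (edgeR adjusted p = 0.0886). It passed under 4 of 18 alternatives, which were DESeq2 (adjusted p = 0.0446, with 6.18% of all genes called as higher), the GC and length offsets with and without the replicate block, and the fit without the pair of libraries apart in GC content (log2 fold change 0.16, adjusted p = 0.0304), and its adjusted p ran from 0.00133 to 0.318.

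The thioredoxin system, in which thioredoxin reductase recharges thioredoxin and peroxiredoxins remove hydrogen peroxide, held both called members. Txnrd1 (ENSMUSG00000020250, chr10:82833951-82897712, plus strand), the cytosolic thioredoxin reductase and a selenoprotein, had 16526, 16018 and 16145 normalized counts in Pdcd1f/f and 20255, 20634 and 20090 in Pdcd1f/fLysMcre libraries. Every Pdcd1f/fLysMcre library was at least 21.6% above every control library, and within each genotype the libraries lay close together (16230 ± 264 against 20327 ± 279, SD, n = 3 each). Txnrd1 rose by a log2 fold change of 0.33 (SE 0.06, 95% interval 0.20 to 0.45, edgeR adjusted p = 0.00801). The change stayed between 0.32 and 0.33 with any 1 library left out, and the call was lost without Pdcd1f/f replicate 2 (adjusted p = 0.0744) and without Pdcd1f/fLysMcre replicate 1 (adjusted p = 0.0632) and held under the other 16 of 18 alternatives. Eid3, which overlaps Txnrd1 on the same strand, had 120 to 194 counts.

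Srxn1 (ENSMUSG00000032802, chr2:152105516-152111376, plus strand) encodes sulfiredoxin, which reactivates peroxiredoxins that hydrogen peroxide has over-oxidized. It had 4407, 4628 and 4369 normalized counts in Pdcd1f/f and 5659, 5751 and 5935 in Pdcd1f/fLysMcre libraries. The lowest Pdcd1f/fLysMcre library was 22.3% above the highest control library, the widest separation among the 10 genes. Srxn1 rose by a log2 fold change of 0.37 (SE 0.06, 95% interval 0.24 to 0.51, edgeR adjusted p = 0.00616). It was past the threshold under all 18 alternatives, with a log2 fold change of 0.35 to 0.46 and an adjusted p of 2.23e-06 to 0.0429.

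Prdx1 (ENSMUSG00000028691, chr4:116685544-116700822, plus strand), a peroxiredoxin of the cytosol and the kind of protein that sulfiredoxin repairs, had 26447, 23929 and 21686 normalized counts in Pdcd1f/f and 25870, 27239 and 23915 in Pdcd1f/fLysMcre libraries. The groups overlapped, with Pdcd1f/f replicate 1 above 2 of the 3 Pdcd1f/fLysMcre libraries. The log2 fold change was 0.10 (SE 0.08, 95% interval −0.08 to 0.28, edgeR adjusted p = 0.493), and with the GC and length offsets it was 0.01 (adjusted p = 0.945). Leaving out single libraries moved it from 0.03 without Pdcd1f/f replicate 3 to 0.16 without Pdcd1f/f replicate 1. Of its 42-base words 11.1% also occur in other genes, which include Gm21399 and Gm7204, so its level is uncertain to the extent that reads were split or dropped.

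Nqo1 (ENSMUSG00000003849, chr8:107388225-107403206, minus strand), the quinone reductase often used as a readout of NRF2 activity, was scarcely detected in these TAMs. Its normalized counts were 13.9, 23.5 and 32.9 in Pdcd1f/f and 17.6, 17.1 and 41.3 in Pdcd1f/fLysMcre libraries. The groups overlapped throughout. The log2 fold change of 0.12 had an SE of 0.45 and a 95% interval of −0.86 to 1.11 (edgeR adjusted p = 0.891), so a change of the size seen in Srxn1 and Txnrd1 lies within the interval and could not be told from none. Leaving out single libraries moved its log2 fold change between −0.42 and 0.45, and without the pair of libraries apart in GC content it was 0.05 (adjusted p = 0.951).

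**Figure D2:**
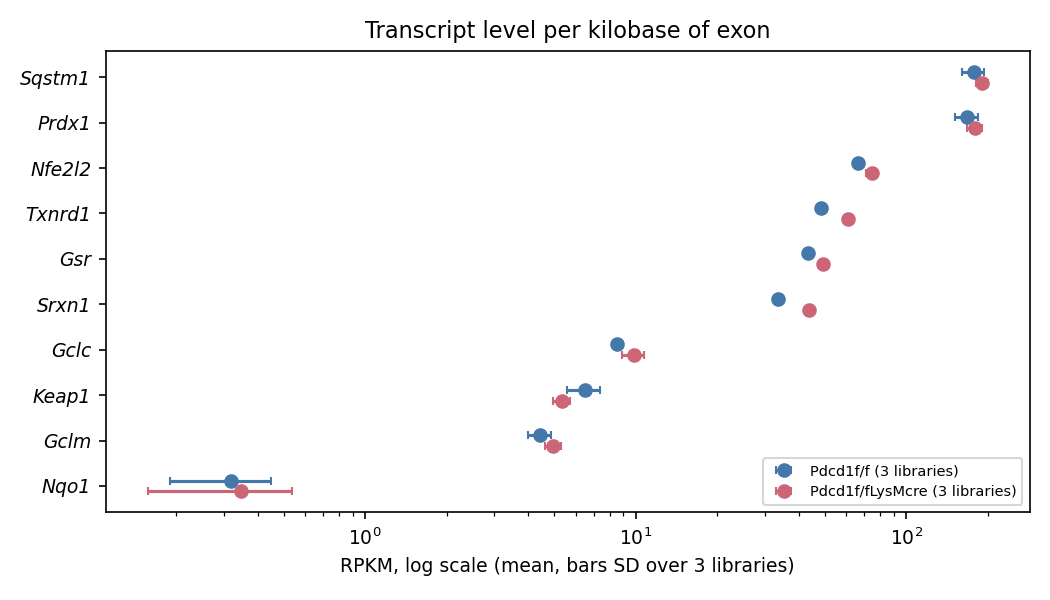
Mean level of the 10 genes per length, in RPKM on a log axis, with bars for the SD over the 3 libraries of each genotype (blue Pdcd1f/f, red Pdcd1f/fLysMcre). Sqstm1 and Prdx1 are the most abundant at 177 and 167 RPKM in Pdcd1f/f TAMs, and Nqo1 the least at 0.32 RPKM.

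Levels of different genes were compared per length, as RPKM from the TMM-scaled counts and the exon length of each gene. In Pdcd1f/f TAMs Sqstm1 had 177 ± 16.6 RPKM and Prdx1 167 ± 16.6 (SD, n = 3 each), and these neighbours did not differ beyond their spread. Nfe2l2 followed at 66.4 ± 1.21, Txnrd1 at 48.5 ± 0.67, Gsr at 43.3 ± 0.44 and Srxn1 at 33.6 ± 1.19 RPKM. Gclc (8.50 ± 0.11), Keap1 (6.48 ± 0.90) and Gclm (4.42 ± 0.43) formed a lower group, and Nqo1 had 0.32 ± 0.13 RPKM. The transcript of NRF2 was thus more abundant per length than that of its adaptor KEAP1, and the order of the 10 genes in Pdcd1f/fLysMcre TAMs was the same, where Sqstm1 and Prdx1, and Keap1 (5.32 ± 0.38) and Gclm (4.95 ± 0.34), did not differ beyond their spread, with Txnrd1 at 60.8 ± 0.80 and Srxn1 at 43.5 ± 1.08 RPKM.

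**Figure D3:**
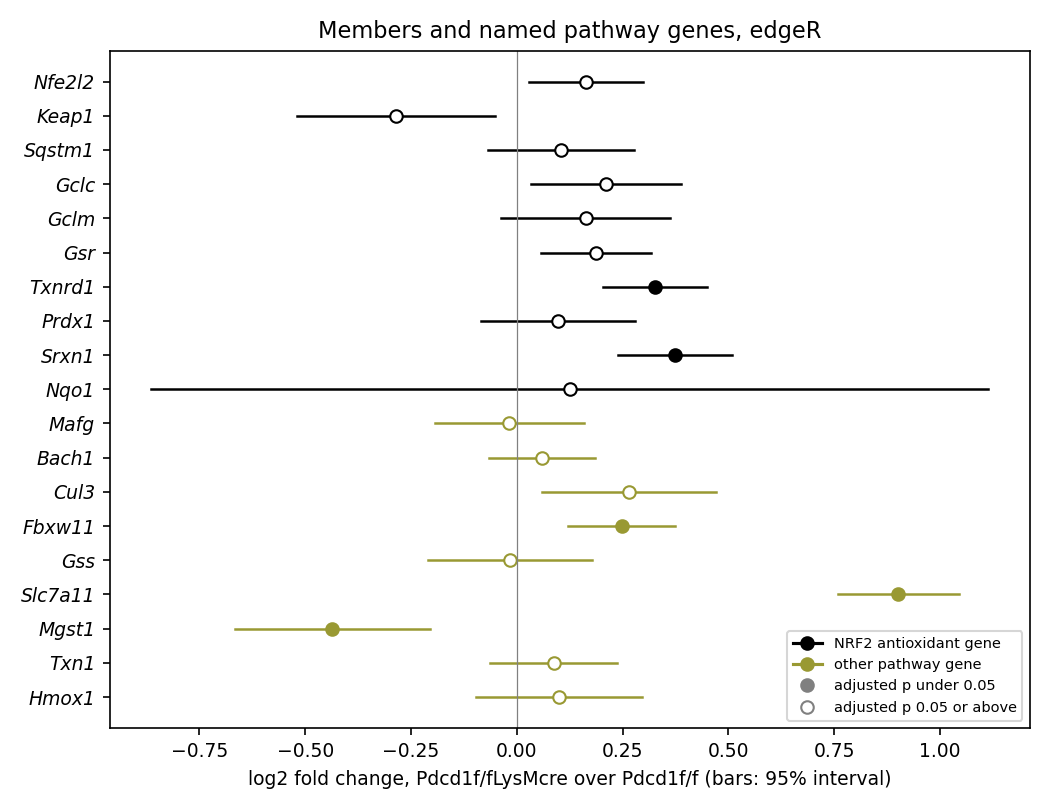
Log2 fold change, Pdcd1f/fLysMcre over Pdcd1f/f, with its 95% interval from edgeR for the 10 NRF2 antioxidant genes (black) and the named genes of the wider pathway (olive); filled marks have an adjusted p under 0.05. Srxn1 (0.37) and Txnrd1 (0.33) are the filled black marks, Slc7a11 (0.90) lies farthest to the right, and the interval of Nqo1 spans −0.86 to 1.11.

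The 10 genes were set beside 64 other genes of the pathway, of which 62 were tested (Ggt1 and Sod3 were under the expression filter). Of the 62, 2 were higher and 1 was lower in Pdcd1f/fLysMcre TAMs, near the background of 2.42% higher and 3.01% lower, and 59 did not pass. The log2 fold change was above 0 in 26 and below 0 in 36, with a median of −0.02. The libraries of the genotypes did not overlap in 11 of the 62 as higher and 9 as lower, against 14.1% and 13.1% of all genes.

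Slc7a11, the xCT subunit of the transporter that imports cystine for glutathione synthesis and a known NRF2 and ATF4 target, had the largest change of the members and the 62 genes that passed the test. Its normalized counts were 2592, 2456 and 2414 in Pdcd1f/f and 4722, 4762 and 4438 in Pdcd1f/fLysMcre libraries, so every Pdcd1f/fLysMcre library lay far above every control. Slc7a11 rose by a log2 fold change of 0.90 (SE 0.06, 95% interval 0.76 to 1.04, edgeR adjusted p = 3.33e-05) and was past the threshold under all 18 alternatives, at 0.81 to 0.93. Its promoter window held no match to the motif. Among the other genes that supply and use glutathione, Mgst1, a membrane-bound glutathione transferase, was lower.

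Mgst1 had 410, 377 and 438 normalized counts in Pdcd1f/f and 303, 289 and 312 in Pdcd1f/fLysMcre libraries, without overlap. It fell by 0.44 on the log2 scale (SE 0.10, edgeR adjusted p = 0.0374). With single libraries left out it was past the threshold only without Pdcd1f/f replicate 1, with adjusted p of 0.0716 to 0.160 in the other 5 fits. The log2 fold change of Mgst1 stayed between −0.49 and −0.39 with any 1 library left out. Gss, the glutathione synthetase, had a log2 fold change of −0.02 (edgeR adjusted p = 0.927). Gpx1, a glutathione peroxidase named after its values were seen, had 30465, 35165 and 35950 normalized counts in Pdcd1f/f and 28077, 24786 and 28487 in Pdcd1f/fLysMcre libraries, without overlap. Its log2 fold change of −0.32 was just short of the threshold (edgeR adjusted p = 0.0514) and past it under 10 of 18 alternatives, and with the GC and length offsets it was −0.13 (adjusted p = 0.0141). Without the pair of libraries apart in GC content it was −0.33 (edgeR adjusted p = 3.56e-05).

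Of the genes that act on NRF2 turnover, Fbxw11, a substrate adaptor (β-TrCP2) of a KEAP1-independent ligase for NRF2, was higher. Its normalized counts were 7562, 7566 and 7344 in Pdcd1f/f and 9091, 8826 and 8721 in Pdcd1f/fLysMcre libraries, and the groups did not overlap. Fbxw11 rose by a log2 fold change of 0.25 (SE 0.06, edgeR adjusted p = 0.0328). Of the fits without 1 library only that without Pdcd1f/f replicate 1 had it past the threshold (adjusted p of 0.0710 to 0.159 in the other 5). Its log2 fold change in these fits stayed between 0.23 and 0.26. Cul3, the scaffold of the KEAP1 ligase, had a log2 fold change of 0.26 that did not pass (edgeR adjusted p = 0.120) and passed under 5 of 18 alternatives, among them the fit without Pdcd1f/f replicate 1 (0.35, adjusted p = 0.00906) and the fit without the pair of libraries apart in GC content (0.26, adjusted p = 0.000641), with a range from 0.000641 to 0.369. With the GC and length offsets, under which it also passed, its change was smaller at 0.14 (adjusted p = 0.0171), and without Pdcd1f/fLysMcre replicate 2 it was 0.18 (adjusted p = 0.346).

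The remaining roles had no called gene. Among the CNC and small MAF proteins 0 of 6 passed, and Mafg, a binding partner of NRF2, had −0.02 (edgeR adjusted p = 0.915) and Bach1, a repressor at the same elements, 0.06 (adjusted p = 0.556). Among the 9 other thioredoxin and peroxiredoxin genes 0 passed, with Txn1, the substrate of Txnrd1, at a log2 fold change of 0.09 (edgeR adjusted p = 0.460). Nor did any of the 6 genes of NADPH supply, 6 of heme and iron, 3 tested of superoxide and hydrogen peroxide, 10 of detoxification and export, or 4 other autophagy receptors. At an unadjusted p under 0.05 in edgeR, 21 of the 62 pathway genes and 6 of the 10 members would be counted, against 3504 of all 14469 genes.

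Hmox1, the heme oxygenase that NRF2 induces once BACH1 is released, was abundant and variable. Its normalized counts were 18855, 23103 and 23108 in Pdcd1f/f and 23285, 21646 and 24713 in Pdcd1f/fLysMcre libraries, and the groups overlapped. Hmox1 had a log2 fold change of 0.10 (SE 0.09, edgeR adjusted p = 0.521). It passed the threshold with the GC and length offsets (0.21, adjusted p = 0.0126), and without Pdcd1f/f replicate 1, the lowest library, it was −6.11e-05, and without the pair of libraries apart in GC content 0.05 (adjusted p = 0.449).

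**Figure D4:**
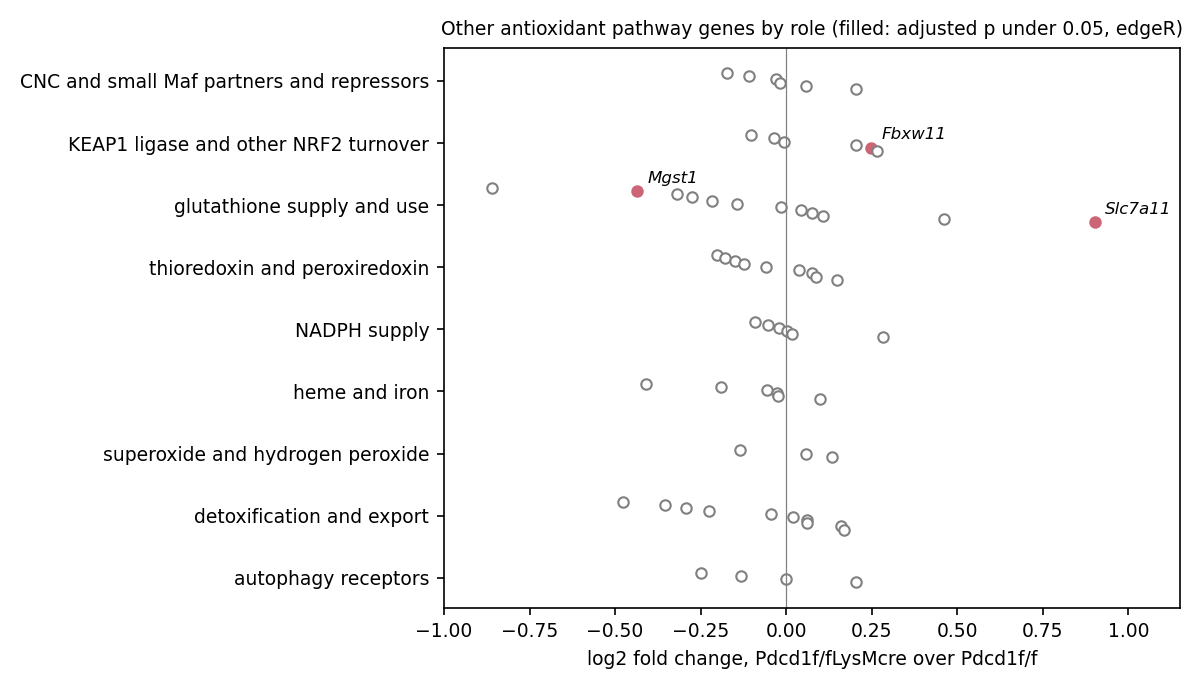
Log2 fold changes, Pdcd1f/fLysMcre over Pdcd1f/f, of the 62 tested pathway genes outside the 10 NRF2 antioxidant genes, in a row for each role; filled red marks have an adjusted p under 0.05 in edgeR. The filled marks are Fbxw11 (0.25), Slc7a11 (0.90) and Mgst1 (−0.44), and the glutathione row is the widest.

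The members also differed in how they varied among libraries of the same genotype. Pdcd1f/fLysMcre replicate 2 was the highest library of its genotype for 6 of the 10 genes and replicate 3 for the other 4, while replicate 1 was highest for none. Among the Pdcd1f/f libraries replicate 1 was highest for 4 genes, replicate 2 for 1 and replicate 3 for 5. Gclm and Prdx1, at 42.1% and 42.3% GC, were highest in Pdcd1f/f replicate 1 and Pdcd1f/fLysMcre replicate 2, the pair in which GC-poor genes were high. So were Nfe2l2 at 46.8% and Txnrd1 at 49.7% GC. Keap1 and Sqstm1, at 58.0% and 54.0% GC, were highest in replicate 3 of both genotypes, and so was Nqo1 at 46.7% GC. Gclc at 47.7% and Gsr at 50.1% GC were highest in Pdcd1f/f replicate 3 and Pdcd1f/fLysMcre replicate 2. For Srxn1 and Txnrd1, at 53.3% and 49.7% GC, the genotypes stayed apart in all 6 libraries, as they also did for Nfe2l2, Gclc and Gsr.

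With offsets that remove the trend of each library with GC content and length, 4 of the 10 genes were past the threshold, all higher. These were Srxn1 (log2 fold change 0.46, edgeR adjusted p = 2.77e-06), Txnrd1 (0.33, adjusted p = 8.56e-06), Gsr (0.21, adjusted p = 0.00133) and Sqstm1 (0.19, adjusted p = 0.00148). In that fit 10.2% of all genes were called as higher. Without the pair of libraries that stand apart, 5 were past it, namely Nfe2l2, Gsr, Txnrd1 and Srxn1 as higher and Keap1 as lower, against 26.2% of all genes in either direction. The pair itself is 1 library of each genotype and allows no test within it.

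**Figure D5:**
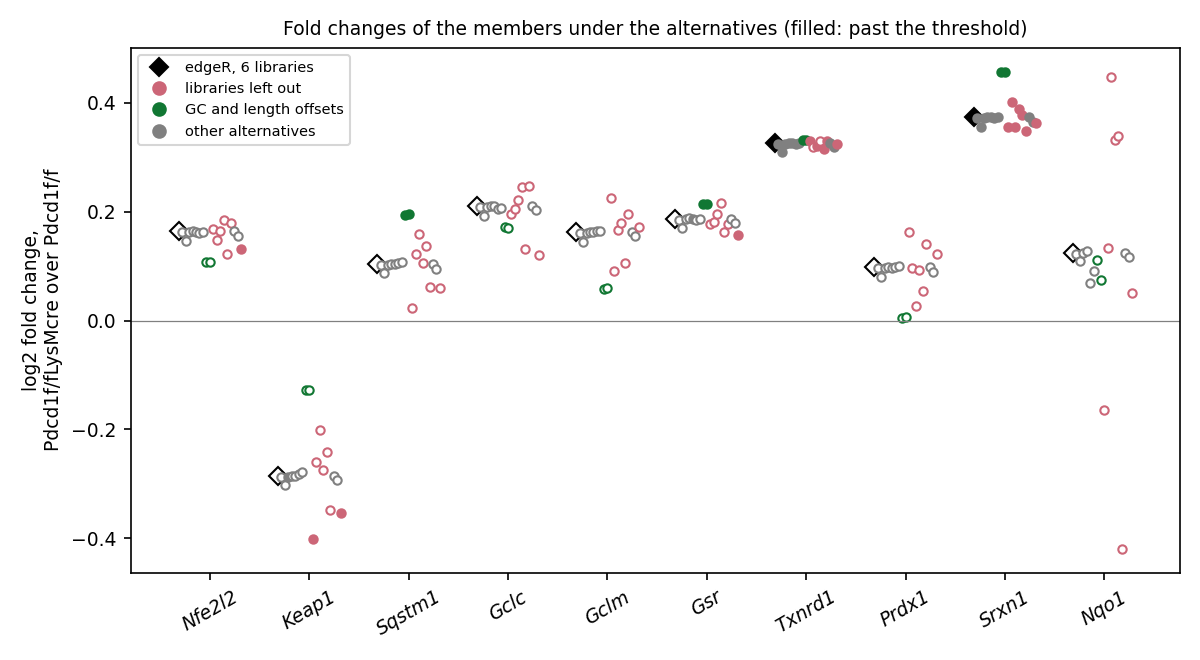
Log2 fold change of each of the 10 genes in the edgeR fit of all 6 libraries (black diamond) and under up to 18 alternatives (red, libraries left out; green, offsets for GC content and length; grey, other normalizations, filters and tools), with filled marks past the threshold. Srxn1 is filled throughout, Txnrd1 in all but 2, Gclc, Gclm, Prdx1 and Nqo1 in none, and Nqo1 is the only gene whose marks lie on both sides of 0.

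Finally, the genes whose pattern over the 6 libraries was most like that of Nfe2l2 were listed, by Pearson's r of log2 CPM among 10601 genes with a mean of at least 100 normalized counts. They were Patl1 (r = 0.996), Impa1 (0.996), Sephs1 (0.994), Pid1 (0.993) and Tnfsf8 (0.991). In each the genotypes did not overlap, which largely follows from choosing them for likeness to Nfe2l2. These 5 genes did not pass the test (edgeR adjusted p from 0.071 to 0.17). Of the members Gclc had the highest r with Nfe2l2 at 0.97, which ranked 198 among these genes, followed by Gsr (0.95), Txnrd1 (0.92), Gclm (0.86) and Srxn1 (0.84). Keap1 had −0.81, and Prdx1 (0.62), Sqstm1 (0.23) and Nqo1 (−0.17) followed it less closely. These values describe 6 libraries that share the genotype difference, the depth and the GC trend, and many genes outside the list tracked Nfe2l2 as closely as its members did.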

How the data were processed

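RNA of sorted TAMs (400 ng) was made into stranded mRNA libraries and sequenced as paired-end 42-nt reads. Per the labels and the submitters' processing notes, the authors used FastQC 0.11.5, cutadapt 2.5, STAR 2.7.3a on GRCm38, featureCounts (Subread 1.6.2) and DESeq2 1.24.0. What the authors deposited are raw read counts for each Ensembl gene and a table of 16552 genes whose normalized signal is the count divided by a size factor per library (0.895 to 1.08). The strand setting and the handling of multi-mapped reads are not given in the sources used here.

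Here 3 Pdcd1f/fLysMcre libraries were compared with 3 Pdcd1f/f libraries by fitting the raw counts in edgeR 4.0.16 under R 4.3.3, after the filter of filterByExpr (minimum count 10, minimum total 15), TMM, a robust quasi-likelihood fit, a two-sided F test and Benjamini-Hochberg adjustment over 14469 genes. Positions, lengths and GC content came from GENCODE M21. RPKM and 42-base words shared between genes were computed from it. Alternatives were DESeq2 1.42.0, limma 3.58.1 on log2(normalized count + 1), other normalizations and filters, loess offsets for GC and length (span 0.5), the replicate block, each library left out and a threshold of 0.01. The genes of the normalized table and the fit without both libraries apart in GC were added after seeing the data. The fitting script was tested on simulated data.

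The members and gene lists were chosen with earlier results of these data known. The genes named are the 10 members, called genes of the pathway list, Hmox1, Slc7a11, Txn1, Bach1, Cul3, Gss, Mafg, Pdcd1, Lyz2, Xist, cell type markers, and the 5 genes most like Nfe2l2. Overlapping genes, Gpx1 and the untested Ggt1 and Sod3 were named after their values were seen.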

Additional observations from a re-analysis of the deposited data

How the results depend on the processing

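Genes past the threshold numbered 786 (44.5% higher), and 1951 with every gene of at least 1 count, 1533 with DESeq2, 2631 with GC and length offsets (56.2% higher), 283 at a threshold of 0.01, 3757 without both libraries apart in GC, and 222 to 3181 with single libraries left out, the highest without Pdcd1f/f replicate 1. Of the 10 members, 2 were called, 4 with the offsets, 5 without both libraries apart in GC, and 1 to 3 with single libraries left out. Of the other pathway genes, 3 were called, 8 with every gene of at least 1 count, 6 with DESeq2, 18 with the offsets, 1 at a threshold of 0.01, 24 without both libraries apart in GC, and 1 to 19 with single libraries left out. In the same order, the shares called over all genes tested in each fit were 5.43%, 7.32%, 12.6%, 18.2%, 1.96% and 26.2%. With single libraries left out these shares ran from 1.51% to 21.6%. The cause of these shifts was not tested.

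Deviations of same-numbered libraries correlated at −0.08, −0.36 and 0.62. Whether a replicate number stands for a shared batch or pairing is not given in the sources used here. These correlations cannot decide it, because the deviations also carry the GC trend. The replicate block gave 1027 genes (7.1% of those tested), 2 members and 5 pathway genes, and the block with the offsets gave 2744 (19%), 4 and 19. Only the libraries numbered 3 correlated best with their own number.

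Direction changed for Mafg with the offsets (0.0864, and 0.0859 with the block) and, with single libraries left out, for Nqo1 (−0.42 to 0.45), Hmox1 (−6.11e-05 to 0.15), Gss (−0.0808 to 0.0216) and Mafg (−0.0949 to 0.0454), none past the threshold in these fits. No other member and no other named pathway gene run under the alternatives turned. The alternatives were not run for Pdcd1 and Lyz2. Nqo1 is the least certain member, with a 95% interval of −0.86 to 1.11, and DESeq2 gave it no adjusted p. How much of this is low counts and how much spread between libraries was not tested.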
